A study of Sus scrofa with 24 samples.

Results

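Cells labelled intramuscular adipocytes on day 8 after induction (IMF-8d) were compared with cells labelled subcutaneous adipocytes on day 4 (BF-4d). The 2 pig fat depots were thus set side by side at a stage of differentiation chosen as matched, not on the same day. The differences were taken between 6 of the 24 mRNA libraries of the series, 3 of IMF-8d and 3 of BF-4d, while the spread behind the p-values was estimated over all 24. The pairing was chosen by these data: across the 16135 genes tested, the change of IMF cells from day 0 to day 8 had a Pearson's r of 0.738 with the change of BF cells from day 0 to day 4, against 0.639 for BF day 2 and 0.682 for BF day 8. The levels themselves did not single out BF-4d: the IMF-8d libraries had an r of 0.948 to 0.967 with the BF-2d libraries, 0.939 to 0.966 with BF-4d and 0.928 to 0.96 with BF-8d. These values are a description over genes, which are not independent replicates, and the likeness of the groups is therefore no result. The day 0 and day 2 libraries of both depots enter the estimate of the spread and not the matched differences.

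All cells were primary preadipocytes of 6-day-old Yorkshire piglets, with no genetic change described. BF cells came from the back subcutaneous fat, and IMF cells were isolated from the longissimus dorsi muscle with a longer digestion in more concentrated collagenase. Both depots received the same scheme of 2 days in induction medium with isobutylmethylxanthine, dexamethasone and insulin, 2 days in medium with insulin and then growth medium. BF-4d cells were thus collected at the end of the insulin step and IMF-8d cells after 4 more days in growth medium. Depot, days in culture and medium cannot be told apart in this comparison. The study drew on 3 piglets, and the labels do not say which library came from which piglet, so the p-values measure the spread between these libraries, which may be technical.

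Adipogenesis of fibroblast-like stromal cells is driven by CEBPB and CEBPD, which switch on PPARG and CEBPA, and these in turn switch on the genes of lipid uptake and storage. While they differentiate, such cells usually lose the actin stress fibres and fibrillar matrix of the fibroblast state. Fat depots also keep positional gene expression, above all of HOX genes, that reflects where in the embryo their stroma arose.

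The values are FPKM, a read number scaled to transcript length and library depth, and the summed FPKM of the 6 libraries ran from 339766 to 379163. FPKM alone do not carry the number of reads behind a value, so no counting interval is given. A gene was called when the limma adjusted p was under 0.01 and the difference in mean log2(FPKM + 1), IMF-8d minus BF-4d, was at least 1 in size. All differences below are on this scale with their standard error (SE), and it understates the fold change of weakly expressed genes. Among the 6 libraries BF-4d replicate 3 stood apart: across genes it had an r of 0.965 and 0.97 with the other BF-4d libraries, which had 0.991 with each other, and the IMF-8d libraries had 0.987 to 0.994. It held the highest BF-4d value in 111 of the 216 genes called lower in IMF-8d and the lowest in 309 of the 553 genes called higher.

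Of 19 tested surface genes of stromal progenitors 4 were called higher in IMF-8d and 2 lower, PDGFRB among them. These are 21.1% and 10.5% of the list, against 3.43% and 1.34% of all genes tested. The higher count was 2 without BF-4d replicate 3 or IMF-8d replicate 3, and the lower count 1 without BF-4d replicate 2 or IMF-8d replicate 2. PDGFRA, the platelet-derived growth factor receptor of mesenchymal progenitors, had 325, 335 and 366 FPKM in BF-4d and 205, 274 and 198 in IMF-8d, a difference of -0.61 ± 0.24 that was not called. The name adipocyte is that of the labels. Markers of the adipocyte ranged from absent to well expressed, and several defining ones were at or near 0 in both groups. The hormone genes LEP and RETN reached 0.0313 and 0 FPKM in the series. PLIN1, which coats large lipid droplets, reached 0.0773 FPKM in BF-4d and was listed at 0 in IMF-8d, and ADIPOQ, the fat hormone adiponectin, reached 0.23 in BF-4d and was also listed at 0 in IMF-8d. FABP4, the fatty acid carrier of adipocytes, had 1.01, 0.822 and 0.176 FPKM in BF-4d and 0.3, 0.236 and 0.676 in IMF-8d. LPL and CFD, which adipocytes also make, were present in every library of both groups, with values given below. The study also stained the cells for lipid, which is not analysed here.

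At the matched stage 769 of 16135 genes were called, which is 4.77% of the genes tested. IMF-8d was higher in 553 of them (3.43%) and lower in 216 (1.34%). These are the shares over all genes tested to set beside the counts of each gene list. The values of the groups did not overlap in 760 of the 769 genes, a count that the call rule nearly fixes, and in 6306 of all genes tested (39.1%). With only the 6 libraries of the contrast in the fit (the 6-library fit) 535 genes were called, 404 higher and 131 lower. The median difference over all genes was 0.0007. Without BF-4d replicate 3 the call was made for 800 genes, of which 625 were among the 769. Against other days of the BF course, which share the IMF-8d libraries, the counts were 1420 genes for BF-0d, 648 for BF-2d and 1123 for BF-8d. The count was thus lower against BF-2d than against BF-4d.

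**Figure D1:**
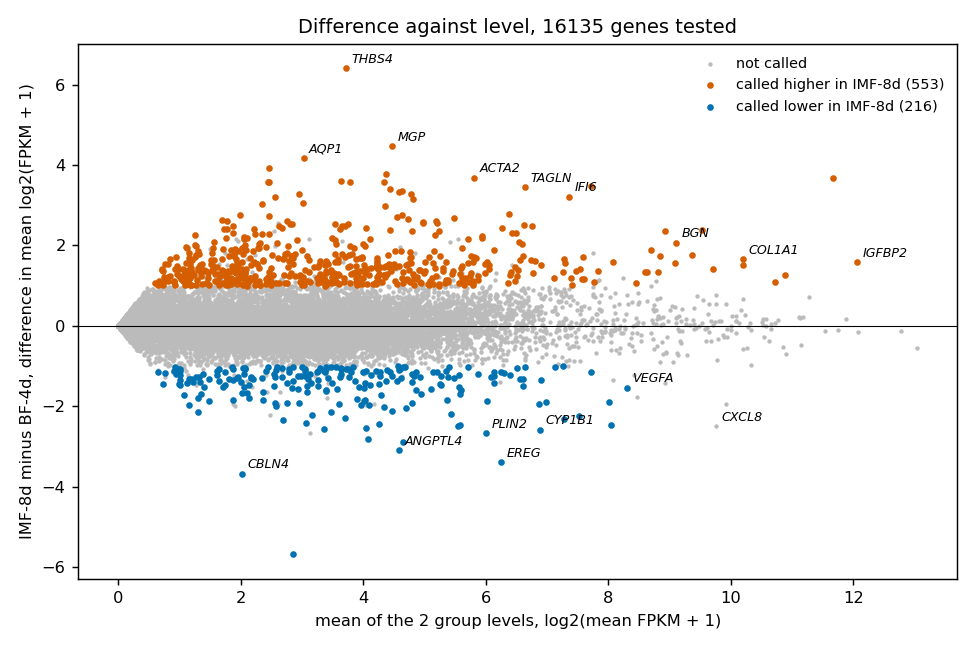
Difference between IMF-8d and BF-4d in mean log2(FPKM + 1) (vertical axis) against the mean of the log2-scaled group levels (horizontal axis) for the 16135 genes tested, 1 point a gene. The 553 genes called higher (orange) reach 6.40 at THBS4, and among the 216 called lower (blue) CBLN4 lies at -3.68, above the lowest point, ENSSSCG00000014198, a gene with no symbol, at -5.68.

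Part of the contractile and myofibroblast genes were called higher in IMF-8d. Of 20 tested members 10 were called higher and none lower, and the median difference of the list was 1.13 against 0.0007 over all genes. Without IMF-8d replicate 3 the number was 7. ACTA2, the smooth muscle actin that marks myofibroblasts (chr14:100868145-100886732 on Sscrofa11.1), had 184, 189.9 and 199.6 FPKM in IMF-8d and 16.2, 22.1 and 7.38 in BF-4d. The difference was 3.68 ± 0.55 (limma adjusted p = 5.02e-05), and every IMF-8d library lay above every BF-4d library. TAGLN, the actin-binding protein transgelin, had 282, 245 and 377 FPKM in IMF-8d and 49.6, 37.9 and 9.29 in BF-4d, a difference of 3.45 ± 0.47 (adjusted p = 1.79e-05). BF-4d replicate 3 was the lowest library for both genes. ACTG2, another smooth muscle actin, differed by 2.62 ± 0.41 and TPM2, a tropomyosin of the thin filament, by 2.04 ± 0.28. ACTA2 and ACTG2 share nearly identical coding sequence, so how reads were divided between them is uncertain. The called members also included the regulatory light chain MYL9, the calponins CNN1 and CNN2, LMOD1, SYNPO2 and the intermediate filament gene DES. The calls of CNN1 and DES were lost without IMF-8d replicate 3 (adjusted p = 0.0109 and 0.0129). The 10 members not called included FLNA, filamin A, with 218 FPKM on average in IMF-8d and 145 in BF-4d, a difference of 0.57 ± 0.26, and VCL, vinculin, with -0.33 ± 0.22.

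The course of ACTA2 shows where both groups stood. It started at 1550.4 to 1641 FPKM in BF-0d and 1698 to 2128 in IMF-0d, and the day 0 difference of 0.23 ± 0.55 was not called (limma adjusted p = 0.867). In BF cells it had fallen to 7.38 to 22.1 by day 4, whereas IMF cells still held 1104 to 1143 on day 4 and 184 to 199.6 on day 8. ACTA2 was thus far below its day 0 level in IMF-8d too. Of the 20 contractile genes 3 were called higher in IMF cells on day 0, CNN1, SYNPO2 and DES, against 1.87% of all genes tested.

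Promoters of the contractile genes are shown because serum response factor, which drives many of them, binds a short A/T-rich element called the CArG box, searched here as CC, 6 letters that are each A or T, and GG. The 250 bases before the RefSeq gene start on Sscrofa11.1 were searched on both strands. A looser form, in which 1 of the 6 letters may be another base, was added after the sequences were seen, and matches to either form are in capitals. MYL9 (chr17:39787915-39788164, plus strand) held 1 match to the strict form, 70 bases before the gene start. ACTA2 (chr14:100886733-100886982, minus strand) held 2 matches to the looser form and none to the strict one in this window.
MYL9: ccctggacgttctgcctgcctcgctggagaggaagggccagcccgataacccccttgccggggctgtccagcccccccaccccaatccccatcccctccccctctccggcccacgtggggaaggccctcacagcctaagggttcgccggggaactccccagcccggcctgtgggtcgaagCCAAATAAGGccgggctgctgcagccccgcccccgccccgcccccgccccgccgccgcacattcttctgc
ACTA2: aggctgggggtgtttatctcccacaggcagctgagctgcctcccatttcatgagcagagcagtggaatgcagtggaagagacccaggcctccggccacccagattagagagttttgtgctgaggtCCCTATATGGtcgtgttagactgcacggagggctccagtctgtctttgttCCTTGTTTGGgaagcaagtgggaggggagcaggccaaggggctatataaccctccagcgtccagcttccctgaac
Of the 10 contractile genes called higher 3 held the strict form in this window, MYL9 and CNN2 among them, against 1.31% of all 19531 promoters of the same length and 1.15% of those of tested genes. The looser form was held by 5 of the 10, ACTA2 and ACTG2 being added, and by 6.98% of all promoters. Among the 427 promoters found for genes called higher 9 held the strict form (2.11%), and among the 167 for genes called lower 1 did (0.599%). The TEAD motif GGAATG was found in 1 of the 10 contractile promoters and in 10.3% of all promoters, and the TATA box TATAAA in 1 of the 10 and in 9.76%. A match is a string of letters and not a bound site. Serum response factor drives many genes of this list whether or not they were called here, and the members not called were not counted. The shares therefore do not bear on the depot difference, and the looser form was shaped on sequences that are counted with it.

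Matricellular and elastic fibre genes were called higher more often than lower. Of 28 matricellular and elastic fibre genes 15 were called higher and 1 lower, with a median difference of 1.24, and without BF-4d replicate 3 the counts were 11 and 0. THBS4, a thrombospondin of tendon and muscle matrix (chr2:88729531-88780759), had 118, 112 and 128 FPKM in IMF-8d and 0.383, 0.625 and 0.268 in BF-4d, a difference of 6.40 ± 0.11 (limma adjusted p = 1.96e-19) and the largest of all 16135 genes. Its relative THBS3 differed by 3.61 ± 0.20. COMP, the thrombospondin of cartilage and tendon, had 1035, 875 and 1078 FPKM in IMF-8d and 329.8, 303 and 72.9 in BF-4d, with a call lost in the 6-library fit (limma adjusted p = 0.0262). THBS4, THBS3 and COMP were also called higher in IMF cells on day 0. MGP, which inhibits mineralisation, had 129, 72.2 and 93.4 FPKM in IMF-8d and 2.60, 7.42 and 1.73 in BF-4d, a difference of 4.47 ± 0.56 (adjusted p = 7.98e-06), with no call on day 0 (0.56 ± 0.56). The microfibril gene MFAP5 differed by 3.57 ± 0.29. Abundant matrix genes were among the called members, such as SPARC, with means of 1972 FPKM in IMF-8d and 699 in BF-4d, and fibronectin, FN1, with 2445 and 1164. The lower member was LTBP1, which binds latent transforming growth factor beta, with 126, 170.5 and 123 FPKM in IMF-8d and 303, 251 and 380.2 in BF-4d.

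Collagens differed by chain. Of 19 tested chains 5 were called higher and none lower, or 1 lower without BF-4d replicate 2. COL8A1, a short-chain collagen of vessel walls, had 66.9, 76.8 and 60.05 FPKM in IMF-8d and 3.36, 5.50 and 8.52 in BF-4d, a difference of 3.41 ± 0.27. Both chains of fibrillar type I collagen were called, COL1A1 with 2062 ± 254 FPKM in IMF-8d and 676 ± 253 in BF-4d (SD, n = 3) and a difference of 1.66 ± 0.27 (limma adjusted p = 0.000107), and COL1A2 with a difference of 1.27 ± 0.19. COL14A1, whose call the 6-library fit did not make (adjusted p = 0.0298), and COL11A1 completed the count. The chains of type VI collagen, COL6A1, COL6A2 and COL6A3, differed by 0.14, 0.09 and 0.05 and none was called. Among the 10 small leucine-rich proteoglycans, which bind collagen fibrils, 4 were called higher, BGN, ASPN, OGN and PRELP, and none lower. BGN, biglycan, had 1046, 1079 and 1255 FPKM in IMF-8d and 275, 329 and 208 in BF-4d. Without BF-4d replicate 3 or IMF-8d replicate 3 the number of the 10 called was 2. The calls of BGN and OGN held in 6 of 6 fits that left out a library, that of PRELP in 3 and that of ASPN in 1, the one without BF-4d replicate 1. In the 6-library fit the calls of OGN, PRELP and ASPN were lost.

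**Figure D2:**
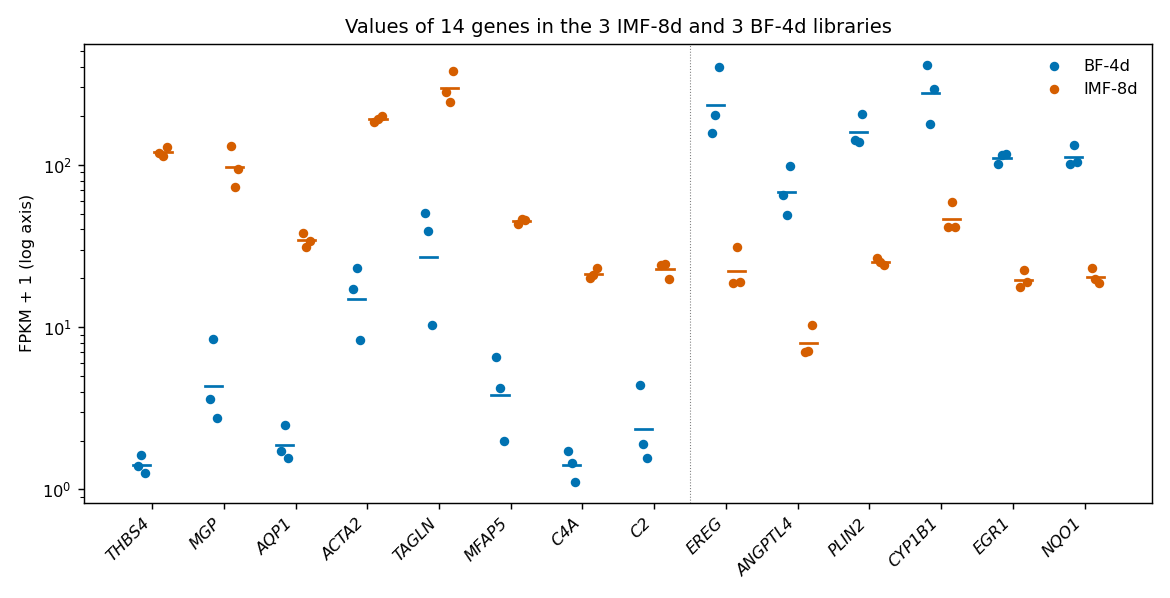
FPKM + 1 on a log axis of 14 genes in each of the 3 BF-4d (blue) and 3 IMF-8d (orange) libraries, with bars at the mean on the log scale. The points of the groups do not overlap in any of the 14 genes, and ACTA2 and TAGLN have their lowest value in BF-4d replicate 3.

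Complement genes encode a protein cascade of innate immunity that fat tissue also makes, and most tested members were called higher in IMF-8d. Of 11 tested members 7 were called higher and none lower (1 lower without BF-4d replicate 3), with a median difference of 2.23. C4A, a component of the classical pathway, had 18.98, 19.95 and 22.2 FPKM in IMF-8d and 0.733, 0.446 and 0.109 in BF-4d, a difference of 3.92 ± 0.16 (limma adjusted p = 8.55e-13). Reads of a near-identical C4 copy could have been counted with it. C2, which pairs with C4, differed by 3.28 ± 0.42. CFB, its counterpart in the alternative pathway, had 31.2, 27.9 and 26.5 FPKM in IMF-8d and 5.17, 3.20 and 4.598 in BF-4d. C3, the hub of the cascade, had 173, 174 and 183 FPKM in IMF-8d and 22.9, 8.51 and 130.3 in BF-4d. The BF-4d libraries were wide apart for C3, and its call (difference 2.52 ± 0.56, adjusted p = 0.00246) was lost without BF-4d replicate 1 (adjusted p = 0.0127), BF-4d replicate 2 (0.0122) or IMF-8d replicate 3 (0.0109), and in the 6-library fit (0.0738). Called too were CFI and SERPING1, which restrain the cascade, and CLU, clusterin, with means of 1667 and 329 FPKM. CFD, adipsin, a complement protease made by adipocytes, had 35.6, 21.1 and 33.5 FPKM in IMF-8d and 16.3, 18.1 and 63.2 in BF-4d and was not called. On day 0 C4A was the 1 member called higher in IMF cells, and CFB (-1.15 ± 0.25), CFD and MASP1 were called lower. C3 had 1.86 to 2.22 FPKM in IMF cells on day 4.

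Genes of lipid storage were called in both directions. The mean log2(FPKM + 1) of 18 lipid storage genes was 2.80, 2.76 and 2.84 in the IMF-8d libraries and 2.96, 3.07 and 2.97 in the BF-4d libraries, so that every IMF-8d library lay below every BF-4d library. The score was 1.94 to 2.07 in BF-0d, 2.42 to 2.94 in BF-2d and 2.87 to 3.33 in BF-8d, and 1.77 to 1.83 in IMF-0d, 1.80 to 1.81 in IMF-2d and 1.87 to 1.98 in IMF-4d. The IMF-8d values thus lay within the range of BF-2d only through BF-2d replicate 3 (2.42), and below BF-2d replicates 1 and 2 (2.93 and 2.94). Of the 18 differences behind the score 9 were positive and 9 negative, with a median of -0.045, so the lower score was no shift of the whole list. PLIN2 had the lowest difference (-2.66), which weighs heavily in such a mean, and the score was not computed without PLIN2. Of these 18 genes 1 was called higher (5.56%, against 3.43% of all genes tested), 1 lower (5.56%, against 1.34%) and 16 were not called, and without BF-4d replicate 3 the lower count was 2. LPL, lipoprotein lipase, had 127, 141 and 93.7 FPKM in IMF-8d and 176, 313 and 178 in BF-4d, and its difference of -0.85 ± 0.58 was not called (limma adjusted p = 0.3). The lower gene was PLIN2, the coat protein of small lipid droplets (chr1:203683867-203709277). It had 25.8, 24.03 and 23.2 FPKM in IMF-8d and 142, 138 and 206 in BF-4d, a difference of -2.66 ± 0.23 (adjusted p = 6.32e-08). PLIN2 lay at 22.3 to 30.7 FPKM in all 12 IMF libraries, while BF cells had 18.1 to 19.1 on day 0 and 103 to 203 on day 8. AGPAT2, an acyltransferase of triglyceride synthesis, was the higher gene, with 11.2, 8.47 and 12.6 FPKM against 4.57, 4.46 and 4.66, and it fell below the size threshold without IMF-8d replicate 3 (0.95).

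ANGPTL4 and PDK4, known targets of fatty acid-sensing receptors, were lower in IMF-8d. ANGPTL4, a secreted inhibitor of LPL, had 5.98, 6.08 and 9.29 FPKM in IMF-8d and 64.4, 48.1 and 97.03 in BF-4d, a difference of -3.09 ± 0.27 (limma adjusted p = 5.81e-08). PDK4, a kinase that restrains glucose oxidation, had at most 0.052 FPKM in IMF-8d and 3.65, 6.83 and 0.783 in BF-4d. The call of PDK4 was lost in the 6-library fit (adjusted p = 0.0298), and that of ANGPTL4 held. PPARG was weakly expressed, with 0.176, 0.193 and 0 FPKM in IMF-8d and 2.17, 0.919 and 1.64 in BF-4d, and it was also called lower on day 0 (-1.67 ± 0.29). Its matched call (difference -1.17 ± 0.29, adjusted p = 0.00554) held in 1 of 6 fits that left out a library, the one without BF-4d replicate 2, and the adjusted p ran from 0.0114 to 0.0301 in the others. Of 17 adipogenic transcription factors PPARG was the 1 called (5.88%, near the 4.77% of all genes tested called in either direction). Without 1 library the count ran from 0 to 2, with 2 without BF-4d replicate 2. CEBPA differed by -0.73 ± 0.23 and was not called, except without BF-4d replicate 3 (-1.05, adjusted p = 0.00116).

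EGF and FGF family genes included several that were lower in IMF-8d. Of 16 tested ligands and receptors 1 was called higher and 4 lower, with EREG, AREG, FGF10 and the receptor FGFR2 on the low side. EREG, epiregulin, a ligand of the EGF receptor, had 17.7, 30.2 and 17.98 FPKM in IMF-8d and 156, 201 and 399.8 in BF-4d, a difference of -3.39 ± 0.48 (limma adjusted p = 2.79e-05). AREG, amphiregulin, differed by -2.23 ± 0.48. EREG had 0.181 to 0.211 FPKM in IMF cells on day 4, so its IMF-8d level was above that of IMF-4d and below that of BF-4d. FGF2, the basic fibroblast growth factor, was the ligand called higher, with 183, 249 and 165 FPKM against 79.7, 87.8 and 45.6, and its call was lost in the 6-library fit (adjusted p = 0.0133). EGR1, an early transcription factor downstream of growth factor receptors, had 16.7, 21.4 and 17.95 FPKM in IMF-8d and 100.6, 114 and 116 in BF-4d. The call of FGF10 was lost without BF-4d replicate 1 (adjusted p = 0.0113), BF-4d replicate 2 (0.0109) or IMF-8d replicate 3 (0.019).

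Antioxidant and glucocorticoid response genes were called lower more often than higher. Of the antioxidant genes 14.3% were called lower and of the glucocorticoid response genes 36.4%, against 1.34% of all genes tested. Of 21 antioxidant genes 3 were called lower and none higher: NQO1, a quinone reductase, TXNRD1, thioredoxin reductase, and GCLC, which makes the glutathione precursor and lost its call in the 6-library fit (adjusted p = 0.0104). The number called higher was 2 without BF-4d replicate 2, and 1 without BF-4d replicate 1, BF-4d replicate 3 or IMF-8d replicate 2. NQO1 had 22.1, 18.7 and 17.6 FPKM in IMF-8d and 99.8, 132 and 104 in BF-4d, a difference of -2.46 ± 0.25. Of 11 glucocorticoid response genes 4 were called lower, ANGPTL4, PDK4, DUSP1 and the kinase gene SGK1 (-1.69 ± 0.22). The member called higher was HSD11B1, which regenerates active cortisol (2.14 ± 0.32). Dexamethasone was part of the induction medium, which BF-4d cells had left for 2 days and IMF-8d cells for 6 days, and the part of the medium in these differences was not tested.

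Inflammatory genes gave calls that depended on single libraries of both groups. CXCL8, the neutrophil chemokine, had 236, 289 and 192 FPKM in IMF-8d and 543, 527 and 8229 in BF-4d, and its difference of -2.49 ± 0.77 was not called (limma adjusted p = 0.022). PTGS2, the inducible cyclooxygenase, had 412, 503 and 343 FPKM against 753, 1146 and 4825. BF-4d replicate 3 was the highest of the 6 libraries in both genes, as it was for IL11, IL6 and MMP1. Of 19 chemokine and cytokine genes 2 were called lower (10.5%, against 1.34% of all genes tested), LIF and TNFAIP3, and none higher. The number called lower was 0 without BF-4d replicate 3, IMF-8d replicate 1 or IMF-8d replicate 3, 1 without IMF-8d replicate 2 and 5 without BF-4d replicate 2. The number called higher was 1 without BF-4d replicate 1 or BF-4d replicate 3. The call of LIF was lost without BF-4d replicate 3 or any 1 of the IMF-8d libraries, and that of TNFAIP3 without BF-4d replicate 3, IMF-8d replicate 1 or IMF-8d replicate 3. Neither was made in the 6-library fit. CXCL8 passed the test without BF-4d replicate 1 (adjusted p = 0.00974) or BF-4d replicate 2 (0.0092).

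Positional genes differed for part of the HOX clusters. Of 43 tested HOX and other positional transcription factors 8 were called higher in IMF-8d and 1 lower, or 3 lower without BF-4d replicate 3. HOXA5, HOXA9 and HOXA10 differed by 2.43, 2.04 and 1.96, and HOXA10 had 2.96, 3.68 and 3.05 FPKM in IMF-8d and 0.171, 0.0577 and 0.0239 in BF-4d. These 3 genes were also called higher in IMF cells on day 0 and on day 2. MEOX2, a homeobox gene of developing muscle, had 4.01, 4.16 and 3.23 FPKM in IMF-8d and 0.235, 0.212 and 0.104 in BF-4d. HOXC4 was the lower gene, with 0.593, 0.243 and 0.472 FPKM in IMF-8d and 2.84, 2.89 and 2.49 in BF-4d, a difference of -1.39 ± 0.10 (limma adjusted p = 3.33e-09). Antisense transcripts run through the HOX clusters, and the counting is not stated to use strand.

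**Figure D3:**
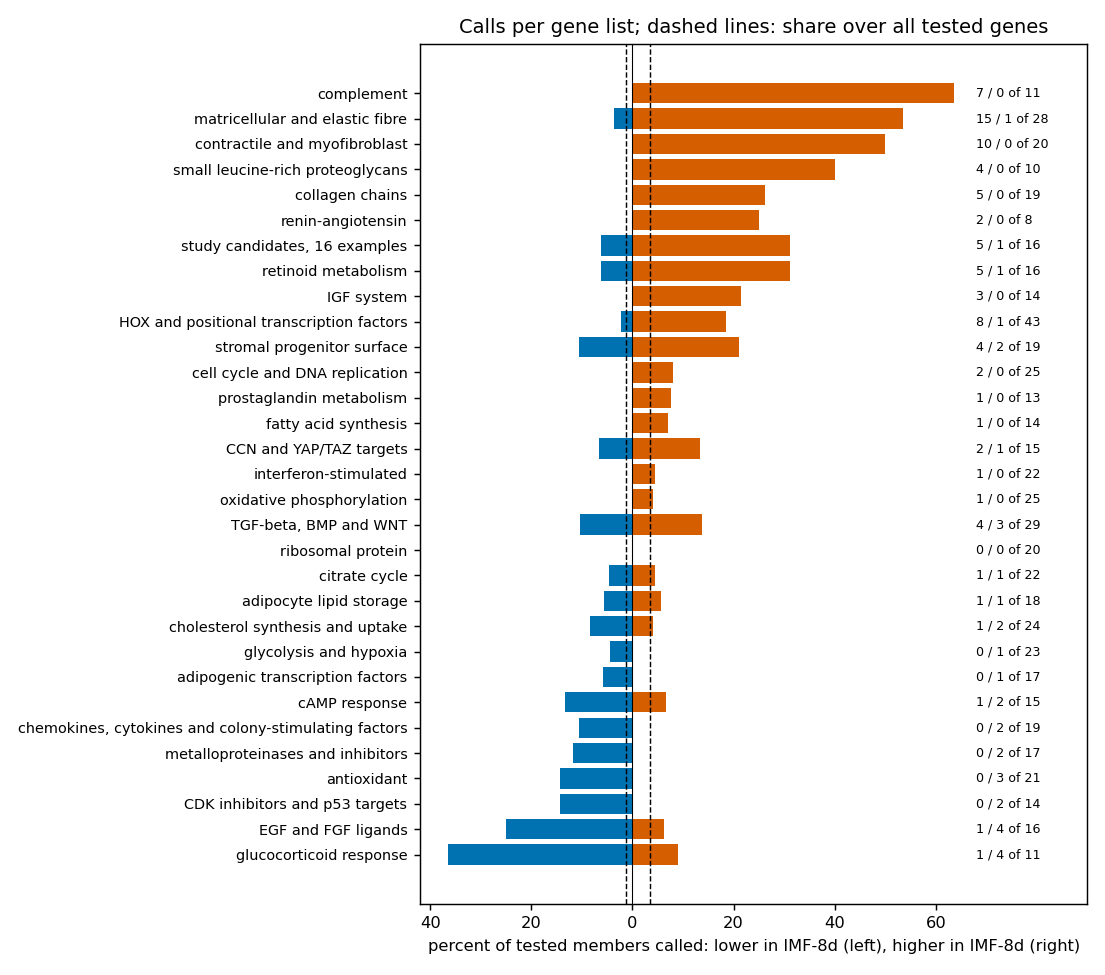
Percent of the tested members of 31 gene lists called higher (orange, right) or lower (blue, left) in IMF-8d, with the number higher, lower and tested beside each bar and dashed lines at the share over all genes (3.43% and 1.34%). Complement (7 of 11 higher), matricellular (15 of 28) and contractile genes (10 of 20) have the longest bars to the right, and glucocorticoid response (4 of 11 lower) and EGF and FGF genes (4 of 16) the longest to the left.

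Signalling lists were mixed. Of 14 IGF system genes 3 were called higher, IGFBP6, IGFBP2 and IGFBP7, and none lower. IGFBP6, a binding protein that prefers IGF2, had 24, 17.9 and 25.04 FPKM in IMF-8d and 1.57, 1.44 and 2.35 in BF-4d. IGFBP2 had 7635, 5582 and 8135 FPKM in IMF-8d and 2100.4, 4021 and 1545 in BF-4d. Its call (difference 1.58 ± 0.43, limma adjusted p = 0.00923) held in 1 of 6 fits without a library, that without BF-4d replicate 2, with an adjusted p of 0.0113 to 0.0501 in the others, and was lost with median ratio scaling (0.0153), quantile normalization, no filter (0.0177), an eBayes step without trend and robust (0.0109) and in the 6-library fit (0.0291). The call of IGFBP7 was lost in the 6-library fit too (0.0115). Of 16 retinoid genes 5 were called higher, among them the chemerin gene RARRES2 (2.42 ± 0.23) and the retinoic acid carrier CRABP2 (1.87 ± 0.37, with no call in the 6-library fit). The lower one (2 without BF-4d replicate 3) was CYP26B1, which degrades retinoic acid, with 9.64, 10.1 and 8.81 FPKM against 25.9, 29.5 and 50.5. Among 29 TGF-beta, BMP and WNT genes 4 were called higher and 3 lower, and without BF-4d replicate 3 or any 1 of the IMF-8d libraries the lower count was 1. SFRP4, a secreted WNT antagonist, had 81.02, 70.2 and 91.7 FPKM in IMF-8d and 13.5, 6.77 and 4.14 in BF-4d.

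From the larger set of candidate genes that the study put forward, 16 that its results name as examples were listed here. Of these 5 were called higher, CACNG7, COX4I2, FGF2, GLA and SHC3, and 1 lower, CYP26B1, or 3 lower without BF-4d replicate 3. The study chose them on these samples, so their directions are no independent evidence. CACNG7, a regulatory subunit of calcium channels and glutamate receptors, had 11.99, 9.86 and 11.6 FPKM in IMF-8d and 1.14, 1.495 and 1.86 in BF-4d. GLA, a lysosomal galactosidase, had 46.5, 49.3 and 52.3 FPKM in IMF-8d and 27.9, 19.3 and 11.5 in BF-4d, and its call was lost without BF-4d replicate 3 (adjusted p = 0.018) or IMF-8d replicate 3 (0.0127). In the 6-library fit GLA, FGF2 and COX4I2 were not called. Of 25 oxidative phosphorylation genes 1 was called higher (4%, near the 3.43% of all genes tested), COX4I2, a subunit of cytochrome oxidase, or 2 without IMF-8d replicate 2, and 22 of the 25 differences were positive, with a median of 0.39. Of 20 ribosomal protein genes limma called 0, and 2 had an unadjusted p under 0.05.

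Markers of other cells of muscle and fat were examined beside these groups. The muscle regulators MYOD1, MYF5 and MYF6 were listed at 0 in every library of the series, and PAX7, the satellite cell marker, reached 0.00683 FPKM, so the defining markers of muscle cells were at or near 0. The 3 tested muscle markers summed to 1.94 to 3.12 FPKM in IMF-8d and 0.228 to 0.382 in BF-4d, and DES was called. The 9 tested pericyte and smooth muscle markers summed to 98.7 to 125 FPKM in IMF-8d and 18.7 to 66.1 in BF-4d. Of these 9 markers 4 were called higher, ACTG2, CSPG4, NOTCH3 and CNN1, and 2 without IMF-8d replicate 3. RGS5, a pericyte marker, had 68.4, 83.8 and 56.7 FPKM in IMF-8d and 31.1, 55.5 and 11 in BF-4d and was not called, and MYH11, the smooth muscle myosin, had 0.435 and 0.17 on average. ABCC9, KCNJ8 and MCAM, also markers of pericytes, had negative differences (-0.59, -0.31 and -0.03) that were not called. ACTG2, CNN1 and MYH11 are on the contractile list too, so that CSPG4 and NOTCH3 were the called markers outside it. The part of such cells in the contractile difference was not tested. In bulk RNA fewer cells of a type and less RNA per cell cannot be told apart.

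The 10 tested cartilage and tendon markers summed to 1005 to 1222 FPKM in IMF-8d and 83.03 to 346 in BF-4d. COMP made up most of these sums, with 875 to 1078 FPKM in IMF-8d and 72.9 to 329.8 in BF-4d, and THBS4 added 112 to 128 in IMF-8d. Both genes are also on the matricellular list. Of the 10, 6 were not called, THBS4, COMP and the tendon factor MKX were called higher and SOX9, the cartilage factor, lower (0 lower without BF-4d replicate 1), and COL2A1, the cartilage collagen, reached 0.0554 FPKM in the series. The part of such cells in the matrix difference was not tested. The immune marker PTPRC was listed at 0 in all 6 libraries, and the 6 tested immune markers summed to 72.03 to 89.6 FPKM in IMF-8d and 83.2 to 106 in BF-4d, with TYROBP called higher (2 members without BF-4d replicate 3). The 5 tested endothelial markers summed to 16.5 to 25.2 FPKM and 11.4 to 17.7, with PECAM1 called higher, a call lost without BF-4d replicate 3 (0.94). KDR and CDH5, which define endothelium, reached 0.101 and 0.0884 FPKM in the series. The 6 tested Schwann and neural markers summed to 50.2 to 72.7 FPKM and 51.3 to 74.3, with 0 called by limma and 1 at an unadjusted p under 0.05.

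The depots were also compared on days 0 and 2, in libraries that share the estimate of the spread with the matched comparison but not its differences. These libraries may come from the same piglets as the matched ones. On day 0, before induction, 302 genes (1.87% of those tested) were called higher in IMF cells and 115 (0.713%) lower. Of the 553 genes higher at the matched stage 70 were higher on day 0, which is 12.7% of the matched list and 23.2% of the day 0 list. Of the 216 lower genes 20 were lower on day 0, 9.26% of the matched list and 17.4% of the day 0 list. On day 2, when 438 genes (2.71%) were higher and 326 (2.02%) lower, 127 of the 553 and 61 of the 216 were called in the same direction, which is 29% and 18.7% of the day 2 lists. The day 2 split depends on scaling, since 57.3% of its calls were higher in IMF cells with FPKM as deposited, 43.3% with median ratio scaling and 47.9% with quantile normalization. On day 0 the share was 72.4%, 64.3% and 62.3% in the same order. Called in 1 direction on day 0, on day 2 and at the matched stage were 42 higher and 12 lower genes. Across all genes tested the matched difference had an r of 0.31 with the day 0 difference and 0.261 with that of day 2, as a description. The day 2 counts rest on BF-2d libraries that differed among themselves, with 445 calls in all without BF-2d replicate 2, 1287 without BF-2d replicate 3 and 764 with all.

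**Figure D4:**
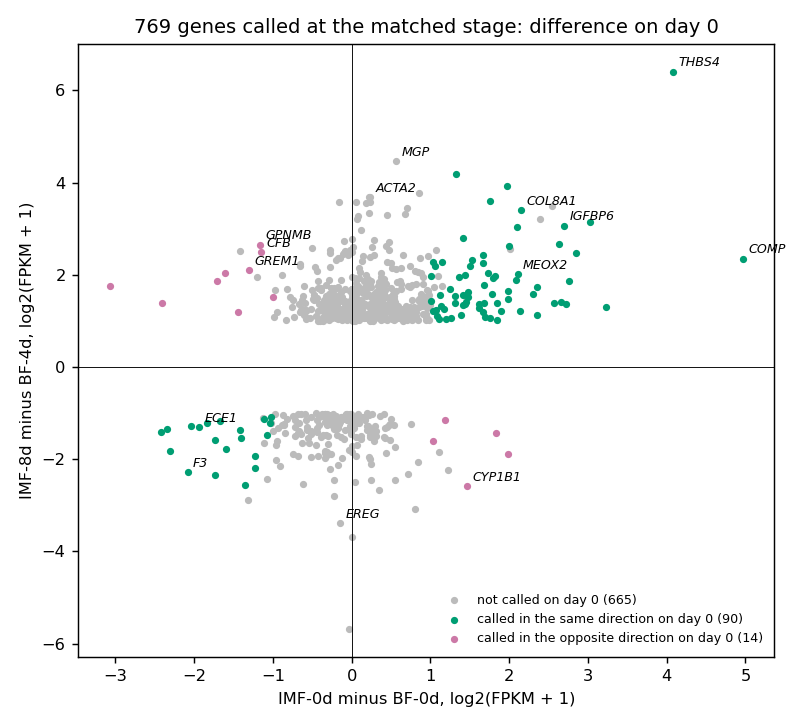
Difference on day 0, IMF-0d minus BF-0d (horizontal), against the matched difference, IMF-8d minus BF-4d (vertical), both in log2(FPKM + 1), for the 769 genes called at the matched stage. Of these 90 are called in the same direction on day 0 (green), 14 in the opposite one (pink) and 665 are not called (grey), and the band between -1 and 1 on the vertical axis is empty by the call rule.

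A smaller set of genes kept all 12 IMF libraries apart from all 12 BF libraries. As the study drew on 3 piglets, the 12 libraries of a depot are not 12 independent samples. A difference between cell isolates could recur on every day, which was not tested. The IMF libraries lay above all BF libraries in 108 of the genes tested (0.669%), of which 51 were called higher at the matched stage, and below them in 32 (0.198%), of which 8 were called lower. THBS4 had 18.5 to 20.4 FPKM in IMF-0d, 46.4 to 49.2 in IMF-2d and 78.3 to 84.9 in IMF-4d, and at most 0.826 in any BF library. AQP1, a water channel, C4A, THBS3, COL8A1 and IGFBP6 were others of this kind. On the low side were HOXC4, the chromatin reader MLLT3, ECE1, which activates endothelin, GXYLT2, PCBP3 and DNMBP. The matched calls of GXYLT2, PCBP3 and DNMBP were lost without BF-4d replicate 3, and those of ECE1 and GXYLT2 in the 6-library fit. ECE1 had 12.4, 14.7 and 16.2 FPKM in IMF-8d against 29.3, 32.2 and 52.9 in BF-4d. The 3 IMF-8d libraries alone lay above all 12 BF libraries in 713 genes (4.42%), 229 of them called higher, and below in 193 (1.20%), 48 of them called lower. So 41.4% of the higher calls and 22.2% of the lower calls were outside the range of the whole BF course. The IMF-8d and BF-4d libraries behind the calls are part of these counts. The call rule thus raises these shares, and the numbers of called genes among those with all 12 libraries apart.

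Other genes crossed over. At the matched stage 14 genes were called in the direction opposite to day 0, 9 of them higher and 5 lower in IMF-8d. GREM1, which binds and blocks BMP ligands, had 3.68 to 4.96 FPKM in IMF-0d and 10.7 to 12.8 in BF-0d. At the matched stage it had 181, 193 and 182 FPKM in IMF-8d and 46.6, 66.4 and 24.8 in BF-4d. BF cells had 169 to 248 FPKM on day 8, a range that holds the IMF-8d values. CYP1B1, a cytochrome of steroid and retinoid oxidation, had 67.3 to 90.8 FPKM in IMF-0d and 25.6 to 29.7 in BF-0d. At the matched stage its order was turned, with 40.2, 58.4 and 40.1 in IMF-8d and 413, 178 and 293 in BF-4d. The difference between depots in the change to the matched stage was called for 701 of all genes tested (4.34%). It uses the IMF-8d and BF-4d libraries too and is thus not independent of the matched calls.

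**Figure D5:**
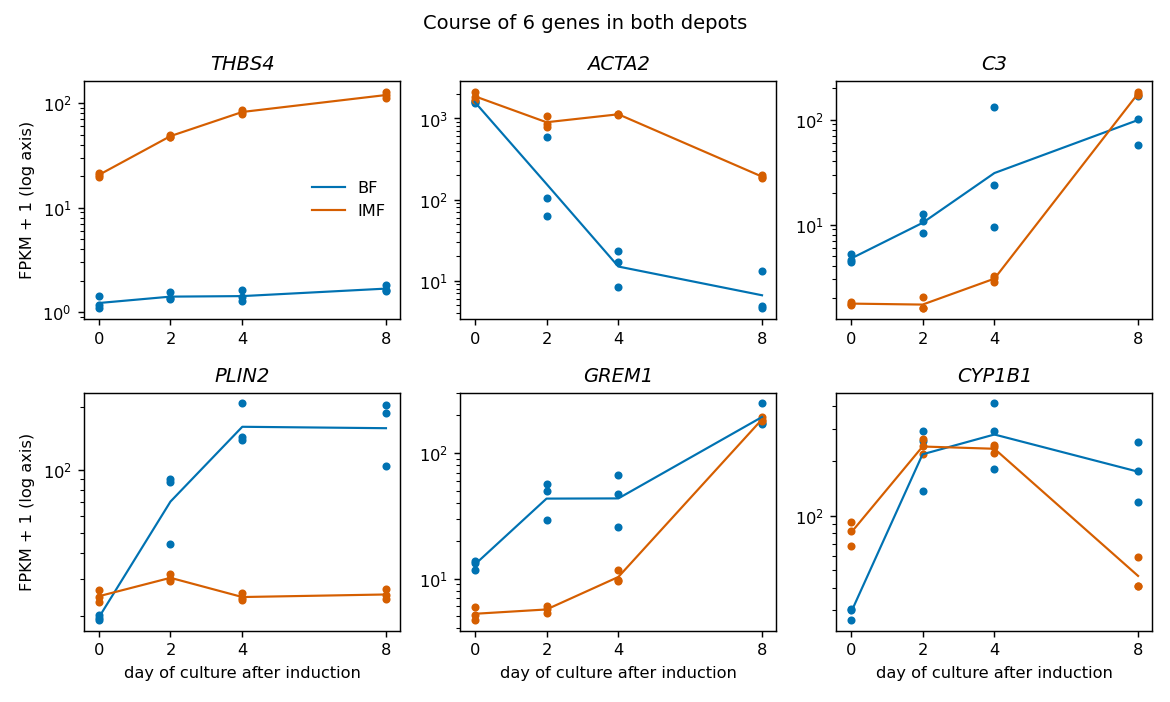
FPKM + 1 on a log axis over days 0, 2, 4 and 8 of 6 genes in BF (blue) and IMF (orange) cells, 1 point a library, with lines through the means on the log scale. The matched comparison sets the BF points on day 4 against the IMF points on day 8: THBS4 and ACTA2 are higher in IMF-8d, PLIN2 is flat in IMF cells (22.3 to 30.7 FPKM), and GREM1 and CYP1B1 change order between day 0 and the matched stage.

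Further genes were higher in BF-4d. CBLN4, a secreted synaptic organiser (chr17:56674872-56683261), had 5.42, 8.94 and 31.99 FPKM in BF-4d and was listed at 0 in all 12 IMF libraries and in BF-0d, so no fold is given. Its level in BF cells was 0.144 to 1.03 on day 2 and 4.31 to 7.75 on day 8. PEG10, an imprinted gene of retroviral origin, had 6.34, 9.71 and 7.25 FPKM in IMF-8d and 121, 58.6 and 35.00 in BF-4d. PCDH7, a cell adhesion protocadherin, had 3.12, 3.24 and 2.97 FPKM in IMF-8d and 36.5, 22.5 and 14.96 in BF-4d, and it was already called lower on day 0 (-1.35 ± 0.26). TIMP3, an inhibitor of matrix metalloproteinases, had 53.1, 90.3 and 63.2 FPKM in IMF-8d and 280.4, 437 and 314 in BF-4d. Of 17 metalloproteinase and inhibitor genes 2 were called lower (11.8%, against 1.34% of all genes tested), TIMP3 among them, and none higher. The number called higher was 2 without BF-4d replicate 3 and 1 without BF-4d replicate 2. MMP2, a gelatinase, had means of 2386 and 2106 FPKM and was not called.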

How the data were processed

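mRNA of 24 cultures was sequenced, 3 for each of 8 groups (BF and IMF cells on days 0, 2, 4 and 8). The authors aligned reads to Sscrofa11.1 with HISAT2 and deposited FPKM per gene from StringTie 1.3.4d, and their own test used DESeq2 1.6.3. FPKM alone do not carry read depth, so precision rests on the 3 libraries a group. Symbols came from a gene name table and matched 14815 of 25462 genes. Genes with an FPKM sum above 1 (16135) entered a limma 3.58.1 fit (R 4.3.3) of log2(FPKM + 1) on 1 mean per group over the 24 libraries, with a trended, robust eBayes step and Benjamini-Hochberg adjustment over all genes. A gene was called at an adjusted p under 0.01 and a difference of at least 1. The code was tested on simulated data. Promoter windows came from the RefSeq annotation of Sscrofa11.1, and no protein sequence was used.

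The members and gene lists were chosen with earlier results of these data known. Named genes were the 12 largest rises and falls among called genes whose groups did not overlap and whose higher mean was at least 10 FPKM, up to 4 called and 2 uncalled members per list, and up to 6 genes per separated or crossing set. Other genes, named to complete a list's count or describe a promoter or marker, were chosen after their values were seen. Alternatives were other pseudocounts, filters, scalings, weights, a fit of the contrast's libraries alone, a replicate block and leaving out each library. Some named items are not reported here. No value of the authors' own comparisons was used.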

Additional observations from a re-analysis of the deposited data

Results flagged for a closer look

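For 12 of the genes reported here the depot difference on day 0 and the difference at the matched stage were both called and differed from each other by limma's test of the difference (interaction), which shares the IMF-8d and BF-4d libraries with the matched comparison. In 6 of the 12 genes the direction was turned, a number that the choice of genes largely fixes, since up to 6 crossing genes were named as such. A gene called in opposite directions also has a large interaction by the call rule. Over all genes tested 14 were called in opposite directions, and the interaction was called for 701 (4.34%). The difference of the differences, in log2(FPKM + 1), was 3.82 for GPNMB, a lysosomal glycoprotein (day 0 -1.17, matched 2.66), 3.65 for APOE, the lipid carrier apolipoprotein E (-1.61, 2.04), 3.64 for CFB (-1.15, 2.49), 3.40 for GREM1 (-1.30, 2.10) and 2.63 for ACE, the angiotensin-converting enzyme (-1.44, 1.19). It was -4.05 for CYP1B1 (1.46, -2.59). The matched call of ACE was lost without BF-4d replicate 3 and without any 1 of the IMF-8d libraries, and with only the 6 libraries of the contrast in the fit.

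In the other 6 genes both differences were positive. The matched difference was larger for AQP1 by 2.86, THBS4 by 2.33, C4A by 1.95, THBS3 by 1.85 and CACNG7 by 1.14 (CACNG7 1.15 on day 0, 2.29 matched), and smaller for COMP (-2.61, from 4.96 to 2.35). The adjusted p of the test ran from 1.31e-08 (THBS4) to 0.00892 (COMP). With 3 libraries a group no outlier test was run, and the interaction was not followed gene by gene when a library was left out.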

How the results depend on the processing

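The 769 matched calls (553 higher, 216 lower) rested most on the pseudocount and on the libraries that set the spread. With a pseudocount of 0.1 the count was 1490 (1043 higher, 447 lower), with 759 on day 0 and 1474 on day 2. With only the 6 libraries of the contrast fitted it was 535, with 131 lower, and 107 on day 2. With array weights per library, whose estimation did not converge, the depot difference in change was called for 1116 genes instead of 701. Leaving out 1 library gave 639 to 836 matched calls, 475 to 601 of them higher and 164 to 251 lower, 346 to 390 calls on day 0, 445 to 1287 on day 2 and 529 to 775 for the difference in change. The genes higher on day 0 as well numbered 59 to 72 and those lower 15 to 22, and those outside the whole BF course 221 to 304 higher and 45 to 72 lower. With the replicate block 769 genes were called, of which 764 were among the 769 without it, and 1 of 188 named genes (WNT5A) lost its call. The deviations of same-numbered BF-4d and IMF-8d libraries had correlations of -0.0117, 0.0822 and -0.0266, which does not meet the bar of 0.1 for a pairing in every pair, and the numbers were treated as names only. The libraries of 1 number may still share a piglet. No called gene among the 188 changed direction under any alternative run. Of those not called 18 had differences of both signs over the alternatives, such as IGF1 (-0.90 to 0.29) and MMP1 (-1.39 to 1.03). Of the 188, 29 lost the call with only the 6 libraries, 17 without BF-4d replicate 3 (9 gained it) and 20 without IMF-8d replicate 3. The causes were not tested. FPKM alone do not carry read depth, so what it limits is not given here.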

Other observations

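Cell cycle and DNA replication genes were called mainly on day 0. Of 25 tested members 18 were called higher in IMF cells on day 0, against 1.87% of all genes tested, with a median difference of 1.40. At the matched stage 2 were, CCND3 and TK1 (8%, against 3.43% of all genes tested), with a median of 0.29. TK1 was not called with only the 6 libraries of the contrast fitted. The matched count was 1 without BF-4d replicate 3 and 5 without BF-4d replicate 1. Of 22 interferon-stimulated genes 7 were called higher in IMF cells on day 0, when 1.87% of all genes tested were. At the matched stage 1 was, IFI6 (4.55%, near the 3.43% of all genes tested), and not with only those 6 libraries fitted. The medians were 2.16 and 1.06, and 21 of the 22 matched differences were positive. Whether the lists' differences changed between the stages was not tested.

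Of the 769 called genes 134 had no symbol. After their values were seen, 2 of them were singled out. ENSSSCG00000037358 had 13406, 7777 and 10185 FPKM in IMF-8d, which is 3.54%, 2.22% and 2.70% of all FPKM of those libraries, and 628, 389 and 2051 in BF-4d. ENSSSCG00000014198 was listed at 0 in the 3 IMF-8d libraries and had 50.5, 41.3 and 61.3 FPKM in BF-4d.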
